A study of Homo sapiens with 21 samples.

Results

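The genes described here encode the proteins of the cytosolic ribosome. They were chosen by symbol: RPL or RPS with a number and an optional A, X or L, or RPLP0, RPLP1, RPLP2 and RPSA, without the RPS6K kinases, among probe sets that carry a single gene symbol. The rule found 68 of 18134 measured genes, 24 of the small subunit and 44 of the large one. For each gene the probe set that was brightest on average across the arrays was used. RPL17, RPL36A, RPS12 and RPS26 are on the array only in probe sets listed for several genes, in 1 case for 2 gene IDs that share the symbol RPS26, and were left out by the rule, and RPLP0 and RPSA are not analysed here.

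Gene expression was measured on 21 Affymetrix PrimeView arrays in SH-SY5Y, a human neuroblastoma cell line that can be differentiated towards neurons. There were 7 groups of 3 arrays. APP cells, which carry the V717F mutation of amyloid precursor protein, a change found in inherited Alzheimer's disease, received AG494, NOSCA or the vehicle DMSO (APP_AG494, APP_NOSCA, APP_DMSO). Wild-type cells received AG494, NOSCA, PALBO or DMSO (WT_AG494, WT_NOSCA, WT_PALBO, WT_DMSO). Every group had been differentiated for 3 to 4 days in retinoic acid (10 µM) and BDNF (50 ng/mL), and was then treated for 72 h in 0.1% DMSO. AG494 is known as an inhibitor of the EGF receptor kinase, NOSCA and PALBO are the labels' own names, and the labels give no doses. The labels do not say how the mutation was introduced or whether the APP line is 1 clone, so that differences between the lines cannot be told apart from differences between clones. The series describes 3 independent experiments, and the array titles do not name them.

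A ribosome joins a small subunit, which reads the mRNA, to a large subunit, which forms the peptide bond. Cells make its proteins in equal amounts, and much of that control lies in translation: most of the mRNAs begin with a run of pyrimidines called a TOP motif, through which mTOR signalling and the protein LARP1 set how well they are translated. Neurons need ribosomes for growth of axons and for local protein synthesis at synapses. RPL5 and RPL11, bound to 5S rRNA, also act outside the ribosome by holding back MDM2, the ligase that degrades p53. An array measures the amount of mRNA and says nothing of its translation.

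The starts of the members show what most of them have in common and the rule did not use. A TOP start was counted where the first transcribed base was C and the next 4 bases were each C or T, read on the transcribed strand only, at any transcription start listed for the gene by RefSeq (GRCh38.p14). Of the 68 members, 56 had a listed start, and 41 of these, or 73.2%, had a TOP start. The share was 5.14% over 27305 genes with a listed start, and 6.06% over 14368 measured genes outside the family. The windows printed next run from 15 bases before the start to the 15th transcribed base, with the TOP run in capitals. They show RPL27A, RPL29 and RPS7, which were lower in the APP cells, RPS6, RPL11, RPLP1 and RPLP2 as typical members, and RPS27 and RPL10 beside the copies RPS27L and RPL10L. RPL27A lies at chr11:8682777-8682806 (plus strand), RPL29 at chr3:51995881-51995910 (minus) and RPS7 at chr2:3575245-3575274 (plus). RPS6 lies at chr9:19380222-19380251 (minus), RPL11 at chr1:23691791-23691820 (plus), RPLP1 at chr15:69452803-69452832 (plus) and RPLP2 at chr11:809952-809981 (plus). RPS27 lies at chr1:153990747-153990776 (plus), RPS27L at chr15:63157463-63157492 (minus), RPL10 at chrX:154398362-154398391 (plus) and RPL10L at chr14:46651767-46651796 (minus). RPL11 has 2 listed starts and RPL10 has 3, and the one with a TOP run is shown.
RPL27A: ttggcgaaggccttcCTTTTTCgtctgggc
RPL29: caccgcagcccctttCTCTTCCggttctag
RPS7: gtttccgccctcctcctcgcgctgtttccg
RPS6: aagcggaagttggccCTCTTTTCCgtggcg
RPL11: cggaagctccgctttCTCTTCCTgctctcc
RPLP1: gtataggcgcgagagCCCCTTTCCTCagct
RPLP2: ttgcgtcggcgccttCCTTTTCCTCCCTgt
RPS27: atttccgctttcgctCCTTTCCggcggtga
RPS27L: aagttgatgccgagcgcagatcgcttgcag
RPL10: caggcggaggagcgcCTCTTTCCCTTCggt
RPL10L: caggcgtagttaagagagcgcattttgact
RPS27 and RPL10 begin with a pyrimidine run, and their copies RPS27L and RPL10L do not at the start listed for them. RPS7 has pyrimidines up to and just past its listed start but does not meet the count. A match is a description of these letters and not of a measured site.

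The level of a gene is given as the log2 intensity of its probe set, normalised by the authors, on a scale that ran from 4.14 to 14.4. Of the 68 members, 50 had a mean over 13 and 60 a mean over 12, and the median member lay at the 99.5th percentile of all genes. At this end of the scale a difference in the cells may be compressed, which was not tested. Another 8 members had a mean under 12. These were RPL3L (5.51), RPL27A (6.09), RPL10L (6.28), RPL36 (10.2), RPL35A (10.7), RPL39L (10.9), RPL7 (11.3) and RPL13 (11.6). Intensities of different probe sets cannot be ranked as amounts of mRNA. Of the chosen probe sets, 41 end in _x_at, a mark for probes that may also bind related transcripts, and ribosomal protein genes have many processed pseudogenes, so that signal from near-identical copies cannot be told apart.

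Ribosomal protein mRNAs changed little over the 7 groups. The limma F test, which asks whether a gene differs among any of the groups, called 3 of the 68 at an adjusted p under 0.05, or 4.41%: RPL27A (adjusted p = 1.6e-05), RPS27L (0.006) and RPL39L (0.016). Over all genes it called 18.4%. Of 190 genes outside the family with a mean over 13, 11.6% were called, and of the 50 members in that range 0 were. The 2 sets were not equally bright: on single arrays the 50 averaged 13.40 to 13.51 and the 190 averaged 13.27 to 13.32. Without adjustment, 1 of those 50 had a p under 0.05 in the same test. With the arrays blocked by run, as described with the arrays, the F test called 1 of the 50, 7 of all 68 members and 33.9% of all genes. The 4 it added were RPS7 (adjusted p = 0.015), RPL36 (0.023), RPL7 (0.024) and RPL29 (0.031). The group means of the 68 members spanned a median of 0.11 on the log2 scale, against 0.25 for all genes, and their median SD between arrays of a group was 0.062, against 0.13 for all genes. Among genes with a mean over 13, the median span was 0.095 for the 50 members and 0.12 for the 190 others, and the median SD was 0.051 for the members and 0.055 for the others. Fewer cells and less RNA per cell cannot be told apart in such samples, because the arrays were scaled to a common distribution.

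**Figure D1:**
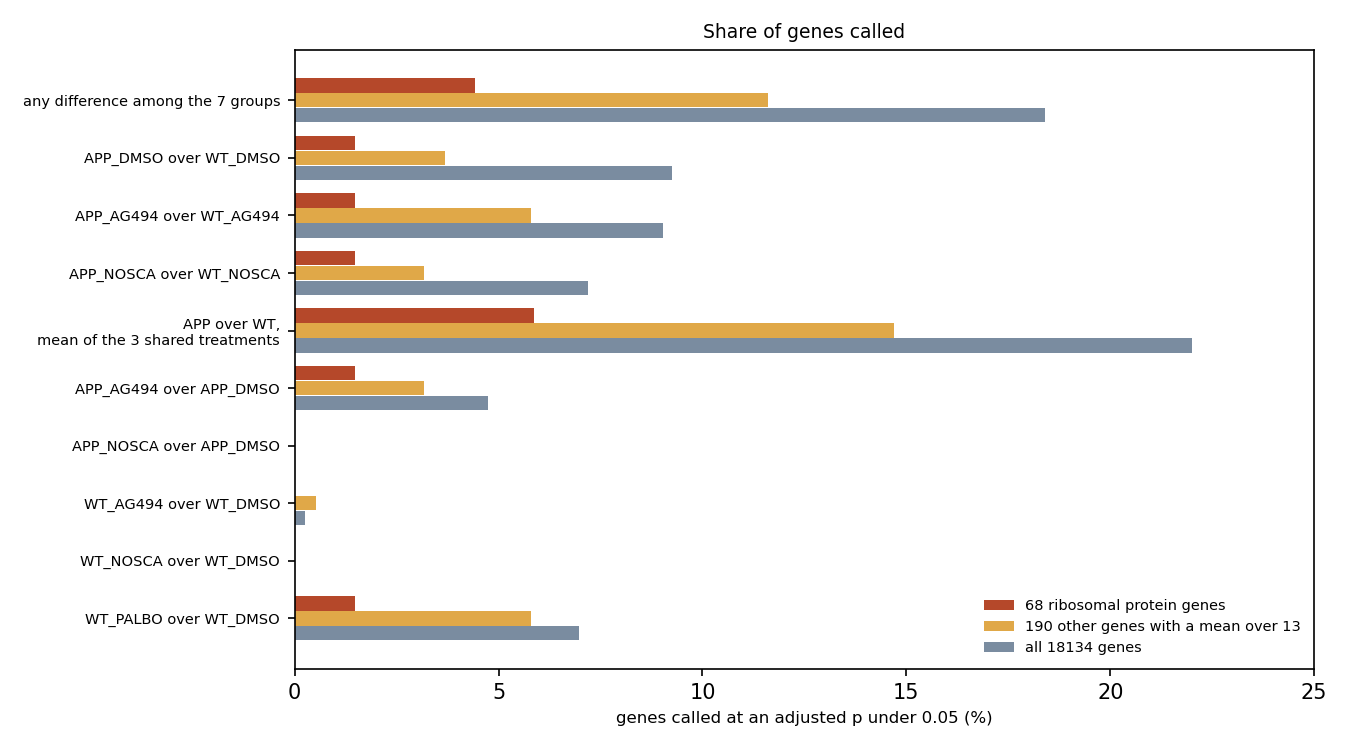
Percent of genes called by limma at an adjusted p under 0.05 (horizontal axis) among any of the 7 groups and in 9 comparisons, for the 68 ribosomal protein genes, for 190 other genes with a mean log2 intensity over 13 and for all 18134 genes. The bar of the ribosomal protein genes is at 4.41% for any difference, against 11.6% and 18.4%, and in no comparison reaches 6%.

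In the comparisons of 2 groups, most members stayed within a narrow band. The 95% interval of the log2 fold change lay wholly within ±0.25, a 1.19-fold difference, for 50 to 61 of the 68 members in each of the 9 comparisons between groups. The members' changes nevertheless leaned to one side in several of them. In WT_AG494 over WT_DMSO 63 of the 68 values were below 0, with a median of -0.060 beside -0.0053 for all genes. In APP_DMSO over WT_DMSO 60 were below 0 (median -0.042, all genes 0.022), and in WT_NOSCA over WT_DMSO 56 were (median -0.050, all genes 0.0087). These 3 comparisons, and that of WT_PALBO (45 below 0, median -0.022), share the WT_DMSO arrays, so that they are not independent of each other. In APP_NOSCA over APP_DMSO 21 were below 0 (median 0.014), and in APP_AG494 over APP_DMSO 55 were (median -0.023). When the array medians were set equal, that last lean was gone, with 32 below 0 and a median of 0.0075. In WT_PALBO the median turned with a repeated quantile normalisation, to 33 below 0 and 0.0012, and without title numbers 11 to 20, to 26 below 0 and 0.012. In APP_NOSCA over APP_DMSO it turned without those arrays, to 37 below 0 and -0.0029. The lean against WT_DMSO of the APP_DMSO, WT_AG494 and WT_NOSCA arrays had the same sign under both scalings, with 51 to 66 of the 68 values below 0. Its size changed. In that order, the medians were -0.027, -0.035 and -0.033 with the repeated quantile normalisation and -0.095, -0.070 and -0.060 with array medians set equal. Without title numbers 11 to 20 they were -0.025, -0.056 and -0.031. No list was tested.

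**Figure D2:**
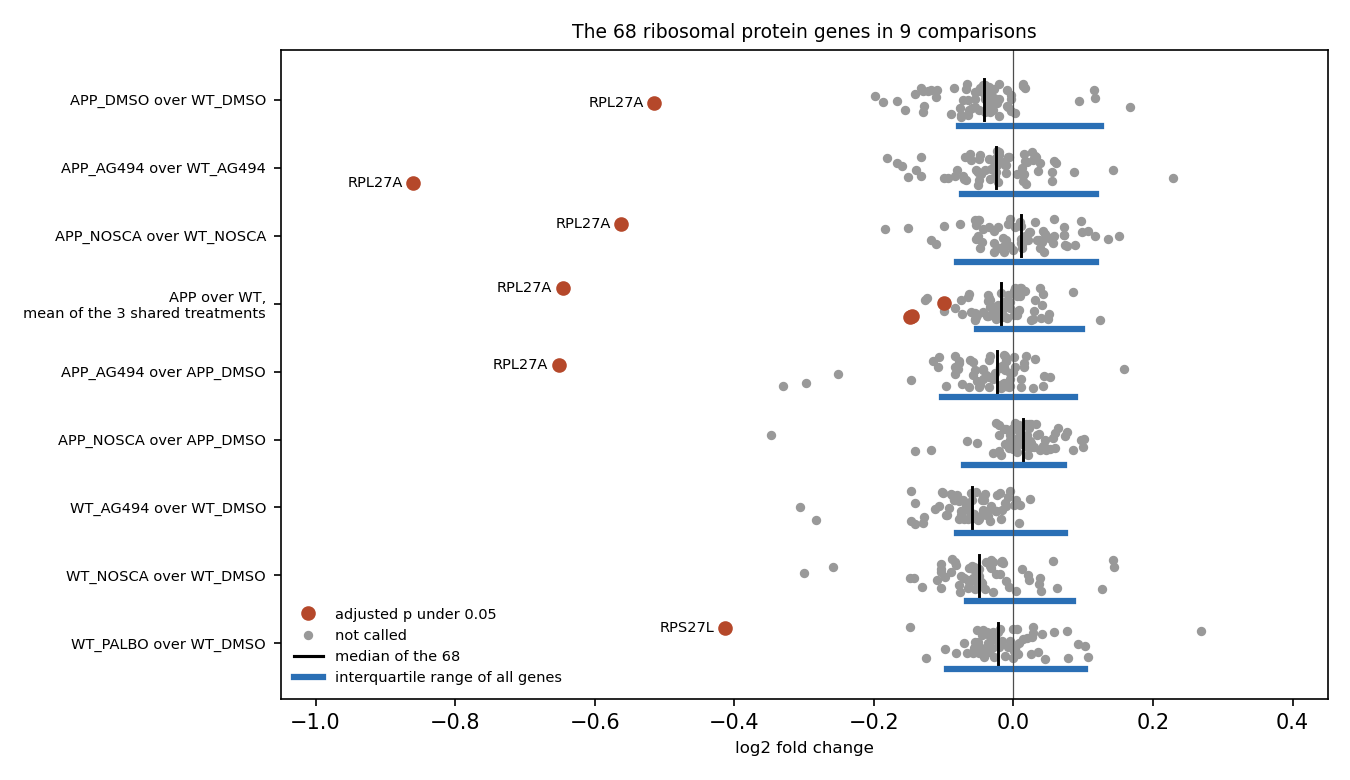
Log2 fold changes (horizontal axis) of the 68 ribosomal protein genes in 9 comparisons, with called genes in red, the median of the 68 as a black line and the interquartile range of all genes as a blue bar. RPL27A stands apart in each comparison of APP with WT cells and RPS27L in WT_PALBO over WT_DMSO, and nearly all other points lie between -0.35 and 0.27; the 3 unnamed red points are RPL7, RPS7 and RPL29.

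The mean of the family varied between the arrays of a group as well as between groups. The mean of the 68 members was 12.7 to 12.9 on single arrays, with a spread of 0.17 over the 21 arrays. By group it averaged 12.77 ± 0.06 in APP_AG494, 12.83 ± 0.01 in APP_NOSCA, 12.82 ± 0.07 in APP_DMSO, 12.81 ± 0.03 in WT_AG494, 12.83 ± 0.06 in WT_NOSCA, 12.86 ± 0.07 in WT_PALBO and 12.87 ± 0.02 in WT_DMSO (SD, n = 3 each). The group means thus lay within 0.10. The titles number the samples, and the numbers 1 to 10, 11 to 20 and 21 to 30 each hold 1 array of every group. The array with a title number from 11 to 20 had the lowest member mean in 7 of 7 groups, and the means of the 3 runs were 12.83, 12.78 and 12.87. The run means thus spanned 0.085, beside 0.10 for the group means. The 190 bright genes outside the family averaged 13.30, 13.29 and 13.29 over the same runs. The 3′ minus 5′ signal of the GAPDH control probe sets, a measure of RNA integrity on the log2 scale, averaged 0.081, 0.12 and 0.089. That of the ACTB control probe sets was 0.384 to 0.472 on the arrays of title numbers 1 to 10. It was 0.335 to 0.492 on those of title numbers 11 to 20 and 0.251 to 0.438 on those of 21 to 30. The part of RNA integrity in the lower run was not tested. The labels do not say what a run is, and p-values without the block count its spread as error.

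**Figure D3:**
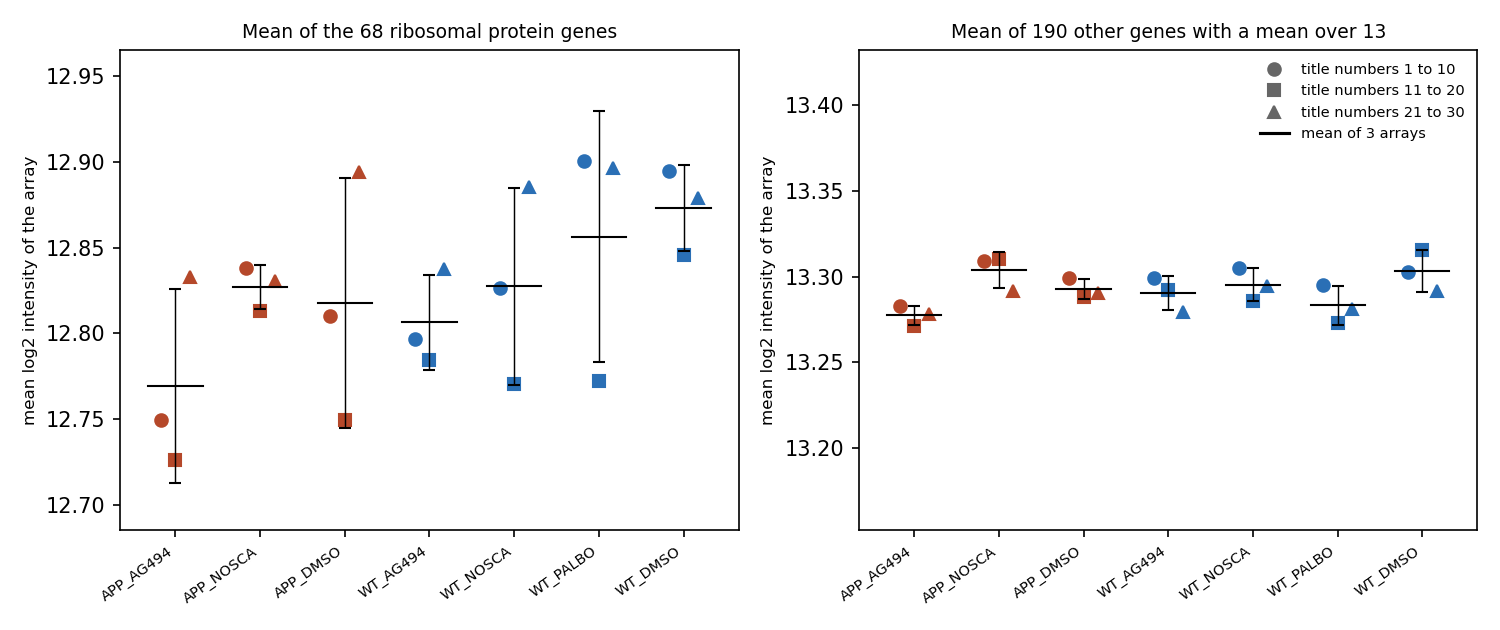
Mean log2 intensity of each array (vertical axis, both panels spanning 0.28) by group, for the 68 ribosomal protein genes on the left and for 190 other genes with a mean over 13 on the right. Points are arrays, with marker shape for the run of title numbers, black lines are means of 3 arrays and bars their SD; the square, title numbers 11 to 20, is lowest in each of the 7 groups on the left.

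The members also moved together from array to array within a group. Over the 21 arrays, the deviations from the group means of 2 members with a mean over 13 correlated with a median r of 0.37 over 1225 pairs. The median was 0.031 over 17955 pairs of genes outside the family with a mean over 13, and 0.012 between members and such genes. With the means of the runs removed as well, the median between members was still 0.37. All pairs share the same 21 arrays, and probes of members may share related targets, so these values are a description.

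The signal of RPL27A, a protein of the large subunit, was lower in APP than in WT cells under each treatment. It fell further with AG494 in APP cells. The only single-symbol probe set of RPL27A had intensities of 5.55, 5.14 and 5.49 in APP_AG494, 5.86, 5.71 and 5.53 in APP_NOSCA and 6.10, 5.95 and 6.09 in APP_DMSO. In WT cells it had 6.34, 6.24 and 6.19 in WT_AG494, 6.34, 6.13 and 6.31 in WT_NOSCA, 6.54, 6.35 and 6.41 in WT_PALBO and 6.78, 6.20 and 6.70 in WT_DMSO. Every APP array lay below every WT array. The gene is at chr11:8682792-8689872 (GRCh38.p14). Its signal was dim, at the 26.8th percentile of all genes, while the median member lay at the 99.5th. All its group means were under 7. Whether so dim a signal follows RPL27A mRNA was not tested.

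RPL27A was the single member of 68 called in APP_DMSO over WT_DMSO, where 9.25% of all genes were called. Its log2 fold change was -0.51 (SE 0.13, adjusted p = 0.017 in limma), or 1.43-fold lower, and -0.68, -0.25 and -0.61 within the 3 runs. The call was lost without WT_DMSO replicate 1 (adjusted p = 0.10), WT_DMSO replicate 3 (0.069) or APP_DMSO replicate 2 (0.071), and with only these groups in the fit (0.11). It was also the single member called in APP_AG494 over WT_AG494 (9.02% of all genes), at -0.86 (SE 0.13, adjusted p = 0.00021), or 1.82-fold lower. In APP_NOSCA over WT_NOSCA (7.2% of all genes) it was again the single member called, at -0.56 (SE 0.13, adjusted p = 0.011; 0.068 without APP_NOSCA replicate 3). With the run as a block, each of these 2 comparisons gained 1 called member, RPS7 (-0.18, adjusted p = 0.049) under AG494 and RPL29 (-0.15, 0.035) under NOSCA, where the block called 16.9% and 14.8% of all genes.

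In APP_AG494 over APP_DMSO, RPL27A alone passed of the 68 members, beside 4.75% of all genes, at -0.65 (SE 0.13, adjusted p = 0.006). Within the 3 runs the difference was -0.55, -0.81 and -0.60. The call was lost without the arrays of title numbers 11 to 20 (adjusted p = 0.065). In WT cells AG494 gave -0.31 (SE 0.13, adjusted p = 0.54), and the difference between the responses of the genotypes was -0.35 (SE 0.19, adjusted p = 0.74), which the test did not separate from 0. In APP_NOSCA over APP_DMSO it had -0.35 (SE 0.13, adjusted p = 0.82).

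The RPL27A result rests on 1 probe set. A pair of further probe sets lists RPL27A together with SNORA3A, a small nucleolar RNA encoded within the gene, and was therefore outside the rule. The brighter of them averaged 7.58 ± 0.08 in APP_AG494, 7.85 ± 0.40 in APP_NOSCA and 7.76 ± 0.09 in APP_DMSO. In WT cells it averaged 7.89 ± 0.14 in WT_AG494, 7.79 ± 0.14 in WT_NOSCA and 7.79 ± 0.03 in WT_DMSO (SD, n = 3 each). Its arrays under DMSO and under NOSCA thus differed by less than their spread, and under AG494 it was lower in APP cells. Which part of the transcript each probe set reads was not analysed here.

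**Figure D4:**
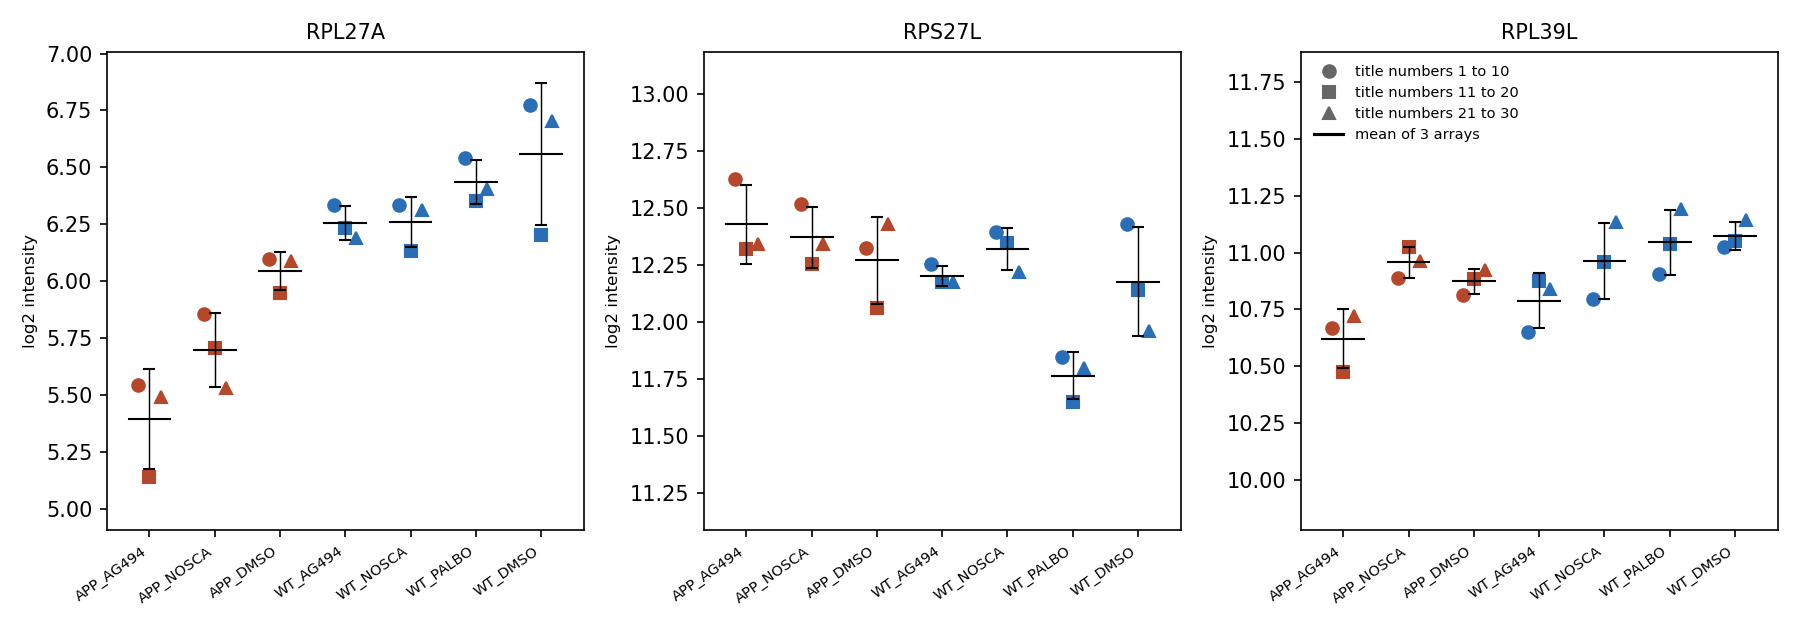
Log2 intensity (vertical axis, each panel spanning 2.1) of RPL27A, RPS27L and RPL39L on each array by group, APP groups in red and WT groups in blue. Points are arrays, marker shape gives the run of title numbers, black lines are means of 3 arrays and bars their SD; RPL27A runs from a mean of 5.39 in APP_AG494 to 6.56 in WT_DMSO, RPS27L is lowest in WT_PALBO at 11.76, and RPL39L is lowest in APP_AG494 at 10.62.

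Averaged over DMSO, AG494 and NOSCA, 9 APP arrays against 9 WT arrays, 4 of the 68 members were called, all lower in APP cells, beside 22% of all genes called and 9.9% called lower. RPL27A was at -0.65 (SE 0.08, adjusted p = 3.3e-06). RPL29, a small protein of the large subunit, was at -0.10 (SE 0.03, adjusted p = 0.024), RPL7 of the large subunit at -0.15 (SE 0.05, 0.042) and RPS7 of the small subunit at -0.14 (SE 0.05, 0.046). Apart from RPL27A these are differences of at most 1.11-fold.

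RPL29 had 13.09, 13.09 and 13.09 in APP_AG494, 13.08, 13.08 and 13.11 in APP_NOSCA and 13.12, 13.08 and 13.12 in APP_DMSO. The matching WT arrays had 13.17, 13.14 and 13.17 in WT_AG494, 13.26, 13.19 and 13.27 in WT_NOSCA and 13.20, 13.17 and 13.18 in WT_DMSO. The 9 APP arrays all lay below the 9 WT arrays, by a margin of under 0.02. RPL7 averaged 11.09 ± 0.12 in APP_AG494, 11.21 ± 0.05 in APP_NOSCA and 11.15 ± 0.14 in APP_DMSO, against 11.25 ± 0.03 in WT_AG494, 11.33 ± 0.18 in WT_NOSCA and 11.32 ± 0.06 in WT_DMSO (SD, n = 3 each), and RPS7 had single arrays of both genotypes in the same range. RPL7 and RPS7 lost the call under 13 and 16 of 30 alternatives, nearly all of them the removal of 1 array, and RPL29 under 1 of 29, the removal of title numbers 11 to 20 (adjusted p = 0.16). A pair of probe sets outside the rule lists RPS7 with RPS7P1. The brighter averaged 13.04 ± 0.17 in APP_AG494, 13.16 ± 0.02 in APP_NOSCA and 13.09 ± 0.14 in APP_DMSO. In WT cells it averaged 13.06 ± 0.11 with AG494, 12.89 ± 0.11 with NOSCA and 13.19 ± 0.003 with DMSO (SD, n = 3 each). Under NOSCA both of these sets were thus higher, not lower, in APP cells.

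With the run as a block, 9 members were called between the genotypes, all lower in APP cells, beside 32.1% of all genes called and 13.4% called lower: the 4 named above, RPL21, RPL23A and RPL7A of the large subunit, the stalk protein RPLP1 (-0.10, adjusted p = 0.027) and the copy RPL39L (-0.12, 0.030). The 68 members together had 43 values below 0 and a median of -0.018, beside a median of 0.023 over all genes. The small subunit had 18 of 24 below 0, and the large subunit 25 of 44.

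RPS27L, a near copy of RPS27 that is known as a transcriptional target of p53, was the single member that fell with PALBO. It had 11.85, 11.65 and 11.80 in WT_PALBO, against 12.43, 12.14 and 11.96 in WT_DMSO, and the arrays did not overlap. The difference was -0.41 on the log2 scale (SE 0.12, adjusted p = 0.040 in limma), or 1.33-fold lower, and 6.98% of all genes were called in this comparison. Within the 3 runs the difference was -0.58, -0.49 and -0.16. Under 10 of 30 alternatives the call was lost, among them the removal of any single WT_PALBO or WT_DMSO array except WT_DMSO replicate 3 (adjusted p up to 0.21), only these groups in the fit (0.15) and the removal of title numbers 11 to 20 (0.35). With the run as a block the adjusted p was 0.0042, and RPL36 of the large subunit was called as well (0.27, adjusted p = 0.046), beside 15% of all genes.

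The parent RPS27 did not pass the test. It was at -0.032 (SE 0.07, adjusted p = 0.89) in WT_PALBO over WT_DMSO, and the second probe set of RPS27L, dim at a mean of 5.43, was not called. Over the 7 groups, RPS27L averaged 12.43 ± 0.17 in APP_AG494, 12.37 ± 0.13 in APP_NOSCA, 12.27 ± 0.19 in APP_DMSO, 12.20 ± 0.05 in WT_AG494, 12.32 ± 0.09 in WT_NOSCA, 11.76 ± 0.10 in WT_PALBO and 12.18 ± 0.24 in WT_DMSO (SD, n = 3 each). WT_PALBO was the lowest group, and the other 6 overlapped with their neighbours in that order.

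The genes whose 7 group means followed RPS27L most closely were, in order of Pearson's r, CDKN1A, AEN, ENPEP, ACTA2 and SERPINB10, with r from 0.985 to 0.996 over 7 group means. CDKN1A, which encodes the cell cycle inhibitor p21, and AEN, a nuclease, are known p53 targets. CDKN1A averaged 12.02 ± 0.08 in WT_PALBO and 12.73 ± 0.41 in WT_DMSO (SD, n = 3 each), which is -0.71 on the log2 scale (SE 0.14, adjusted p = 0.0035 in limma), and it was highest in APP_AG494 at 13.27 ± 0.10. ACTA2 had the widest span of group means of the 5, 2.23, and was called by the F test (adjusted p = 5.1e-06). It averaged 8.20 in WT_PALBO, 9.35 in WT_DMSO and 10.43 in APP_AG494. The group means of ENPEP and SERPINB10 spanned 0.17 and 0.16, and they were not called by the F test. The 16 measured genes listed for p53 and its ribosomal protein checkpoint had a median of -0.35 with PALBO, beside 0.0038 over all genes. Of the 16, 3 were called lower with PALBO, beside 3.87% of all genes. They were CDKN1A, the damage sensor DDB2 (-0.97, adjusted p = 1.4e-06) and MDM2 (-0.44, adjusted p = 0.0067). TP53I3, an oxidoreductase gene induced by p53, rose (0.37, adjusted p = 0.050, just under the threshold). Between the lines, CDKN2A alone of the 16 was called in APP_DMSO over WT_DMSO (-2.82, adjusted p = 3.5e-08 in limma), beside 9.25% of all genes. Over the shared treatments, FAS and CDKN1A were higher and CDKN2A and GDF15 lower, beside 12.1% of all genes higher and 9.9% lower. Mesenchymal markers mark the substrate-adherent state of neuroblastoma cells. Of these, 7 of 16 were also called lower in WT_PALBO, beside 3.87% of all genes. The mean over the list was 8.38 to 8.45 on the WT_PALBO arrays and 8.71 to 8.82 on the WT_DMSO arrays. Between 5 and 6 of those 16 had group means under 7. In the same arrays the glial marker S100B rose (0.95, adjusted p = 0.00039), as did 3 of 13 noradrenergic markers, beside 3.11% of all genes higher. These 3 were CHGB (0.68), CHGA (0.49) and ISL1 (0.43). The part of these markers in the RPS27L result was not tested.

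RPL39L, a copy of RPL39 known for its high level in testis, differed among the groups by the F test but in none of the comparisons of 2 groups. It had 10.67, 10.47 and 10.72 in APP_AG494, 10.89, 11.02 and 10.96 in APP_NOSCA and 10.81, 10.88 and 10.92 in APP_DMSO. In WT cells it had 10.65, 10.87 and 10.84 in WT_AG494, 10.80, 10.96 and 11.13 in WT_NOSCA, 10.91, 11.04 and 11.19 in WT_PALBO and 11.02, 11.05 and 11.14 in WT_DMSO. The APP_AG494 arrays lay below the APP_DMSO arrays, and the WT_AG494 arrays below the WT_DMSO arrays. AG494 gave -0.25 in APP cells (SE 0.09, adjusted p = 0.16) and -0.28 in WT cells (SE 0.09, adjusted p = 0.30), and with the run as a block the adjusted p was 0.029 in APP cells and 0.050 in WT cells, just over the threshold. Its parent RPL39 was at -0.00034 (SE 0.08) in APP cells and at -0.025 (SE 0.08) in WT cells with AG494. The genes whose group means were most like those of RPL39L were GUF1, EEF1B2, CLASRP, RPS13 and EDDM3A (r from 0.963 to 0.983 over 7 group means), none of them called by the F test.

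The other copies, RPL10L and RPL3L, known from testis and from heart and skeletal muscle, were dim in every group and passed no test. Group means of RPL10L spanned 0.28 and those of RPL3L 0.23. The parents RPL10 and RPL3, core proteins of the large subunit, had group means within 0.056 and 0.069.

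RPLP1 and RPLP2 form the acidic stalk of the large subunit, which recruits translation factors. RPLP1 averaged 13.25 ± 0.08 in APP_AG494, 13.28 ± 0.05 in APP_NOSCA and 13.29 ± 0.11 in APP_DMSO, against 13.39 ± 0.08 in WT_AG494, 13.33 ± 0.10 in WT_NOSCA, 13.37 ± 0.12 in WT_PALBO and 13.40 ± 0.02 in WT_DMSO (SD, n = 3 each). The APP groups were thus slightly lower, a difference that passed with the run as a block, as given above, but not without it (adjusted p = 0.13).

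RPLP2 depended on the probe set. Its brightest one, which stands for the gene here, differed by -0.016 (SE 0.05) between APP and WT cells over the shared treatments. A second one had 11.36, 11.47 and 11.71 in APP_AG494, 10.96, 11.18 and 11.22 in APP_NOSCA and 10.92, 11.14 and 11.28 in APP_DMSO. It had 10.10, 9.97 and 10.36 in WT_AG494, 9.97, 9.85 and 10.10 in WT_NOSCA, 10.10, 9.93 and 10.29 in WT_PALBO and 10.06, 10.09 and 10.24 in WT_DMSO. Every APP array lay above every WT array, at a difference of 1.17 (SE 0.07, adjusted p = 5.7e-10 over all single-symbol probe sets), in the direction opposite to that of the called members. The third was dim (mean 6.80) and flat. Which transcripts or neighbouring genes the second probe set reads was not tested.

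**Figure D5:**
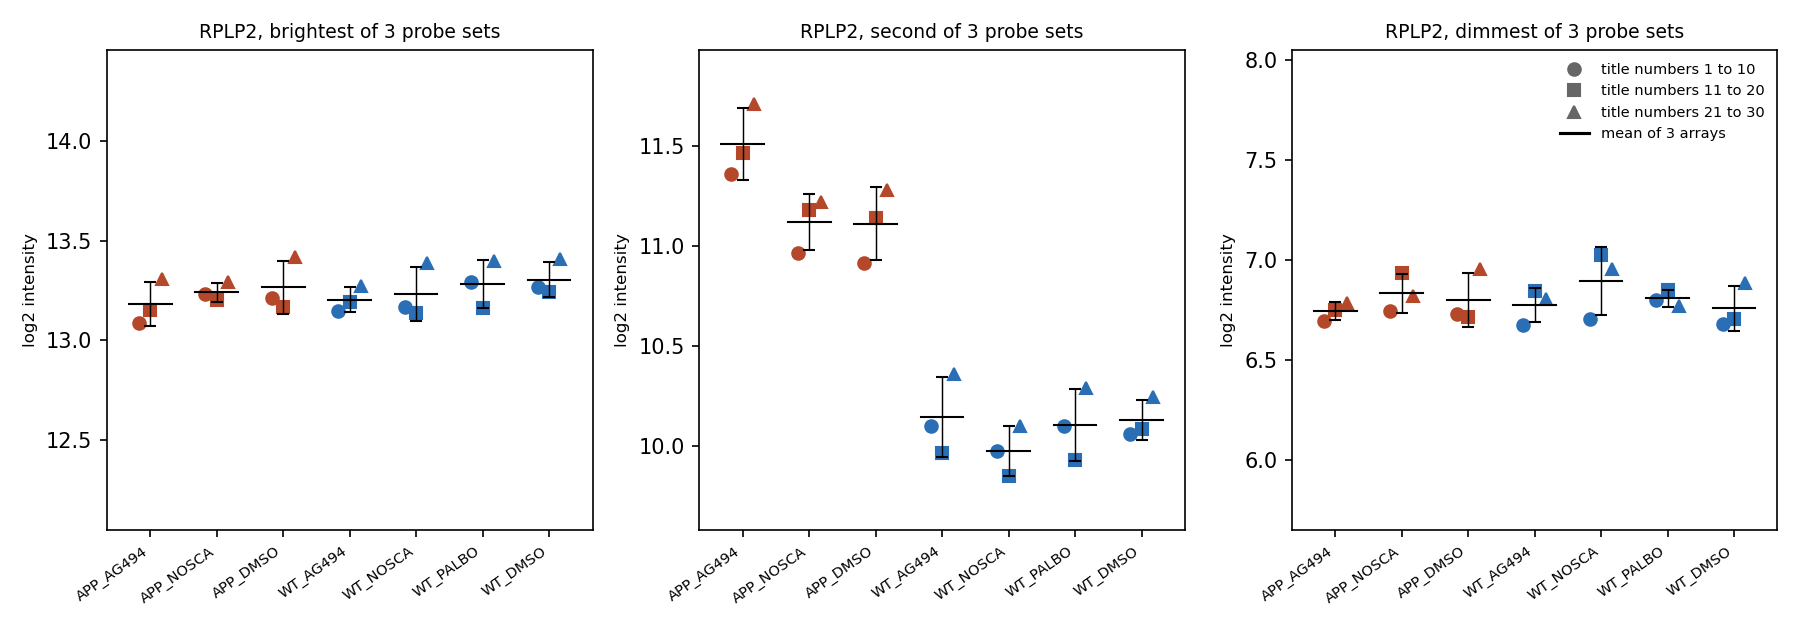
Log2 intensity (vertical axis, each panel spanning 2.4) of the 3 probe sets of RPLP2 on each array by group, from the brightest on the left to the dimmest on the right. Points are arrays, marker shape gives the run of title numbers, black lines are means of 3 arrays and bars their SD; APP arrays of the second probe set lie at 10.92 to 11.71 and WT arrays at 9.85 to 10.36, while the other probe sets show no such step.

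Other members had the same kind of split. The 68 genes have 176 single-symbol probe sets, and 50 genes have more than 1. Among the 108 probe sets that were not chosen, 14, of 12 genes, were called between APP and WT cells over the shared treatments, 12 lower and 2 higher, beside 20.1% of all single-symbol probe sets. RPL31 of the large subunit had its brightest probe set at 0.0062 (SE 0.04), and 3 dimmer ones lower in APP cells, at -0.15, -0.31 and -0.46. RPS2 of the small subunit had a second probe set at -0.58 (SE 0.12, adjusted p = 0.0012), beside -0.055 (SE 0.04) for the chosen one. RPL10, in contrast, had 1 further probe set higher in APP cells (0.22, SE 0.05, adjusted p = 0.0064). The dimmer sets of RPL31 and RPS2 and the brightest set of the same gene therefore gave different answers about the same symbol.

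RPL5 and RPL11, the proteins of the 5S particle that binds MDM2, passed the test in none of the comparisons. RPL5 averaged 13.44 ± 0.06 in APP_AG494, 13.50 ± 0.06 in APP_NOSCA, 13.50 ± 0.02 in APP_DMSO, 13.51 ± 0.03 in WT_AG494, 13.53 ± 0.01 in WT_NOSCA, 13.54 ± 0.08 in WT_PALBO and 13.56 ± 0.06 in WT_DMSO (SD, n = 3 each). Among comparisons of groups, RPL11 differed most in APP_NOSCA over WT_NOSCA, at 0.12 (SE 0.07, adjusted p = 0.46). RPS6, the small-subunit protein phosphorylated downstream of mTOR, ranged from 13.01 to 13.14 over the 21 arrays. Its log2 fold change was -0.055 (SE 0.05, adjusted p = 0.65) in APP_DMSO over WT_DMSO and -0.031 (SE 0.05, adjusted p = 0.86) in WT_PALBO over WT_DMSO.

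AG494 in WT cells called 0 of the 68 members, beside 0.254% of all genes. Without adjustment, 2 members, RPL39L and RPL27A, had a p under 0.05 in limma, as did 1474 of 18134 genes, and the fit with the block also called 0, beside 1.97% of all genes. In APP cells the block called 4 members with AG494, all lower, beside 11.8% of all genes called and 7.06% called lower: RPL27A, RPL35A (-0.33, adjusted p = 0.035), RPL36 (-0.30, 0.034) and RPL39L. RPL36 had 9.94, 9.87 and 10.07 in APP_AG494, against 10.22, 10.11 and 10.44 in APP_DMSO, and these arrays did not overlap. RPL35A had 10.61, 10.30 and 10.82 in APP_AG494, against 10.84, 10.61 and 11.27 in APP_DMSO, which do overlap although each run shows a fall. Without the block, the adjusted p of RPL36 was 0.12 and that of RPL35A 0.47. A difference in AG494 response between the genotypes was called for 0 of the 68 members, beside 0.0386% of all genes; 1 member, RPL36, had an unadjusted p under 0.05, as did 1365 of all genes, and the block called 0 beside 1.26% of all genes.

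NOSCA called 0 of 68 in WT cells, beside 0.0165% of all genes, and 0 of 68 in APP cells, beside 0% of all genes. At an unadjusted p under 0.05 limma gave 1 member in each, RPL27A, and 1253 and 959 of all genes, and the block called 0 members in both, beside 0.419% of all genes in WT cells and 0.0276% in APP cells. The NOSCA response was not found to differ between the genotypes for any of the 68 members, again beside 0% of all genes, with 0 at an unadjusted p under 0.05 and 0 with the block, which called 0.0165% of all genes. RPL9 had the largest fall with NOSCA in WT cells among members with a mean over 12, at -0.26 (adjusted p = 0.87), and its arrays spread over 0.47 within that group.

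The ribosomal proteins outside the rule, FAU, RPL22L1, RPL26L1, RPL7L1 and RPL36AL, were called in none of the comparisons. Of 20 measured genes that control TOP mRNAs and growth, MYCN, TSC1 and MTOR were higher and MYC was lower in APP_DMSO than in WT_DMSO, where 9.25% of all genes were called. The same 4 of 20 were called over the shared treatments, beside 22% of all genes. MYC, a transcription factor known to drive ribosomal protein genes, averaged 7.68 ± 0.17 in APP_DMSO and 9.16 ± 0.27 in WT_DMSO (SD, n = 3 each), or -1.48 on the log2 scale (SE 0.26, adjusted p = 0.00066). MYCN, its relative in neuroblastoma, averaged 8.77 ± 0.16 in APP_DMSO and 8.19 ± 0.32 in WT_DMSO, or 0.58 on the log2 scale (SE 0.16, adjusted p = 0.030). The subunit mRNAs, listed above, had a median difference of -0.042 in the same arrays.

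Factors that assemble the ribosome showed a few changes in both directions. Of 64 measured biogenesis factors, 2 were higher and 1 lower in APP_DMSO than in WT_DMSO, beside 9.25% of all genes called. RIOK2, a kinase of the small subunit's last steps, and RRP9, a protein of the U3 snoRNP, were higher. NOC2L was lower, at 10.95 ± 0.02 in APP_DMSO and 11.77 ± 0.08 in WT_DMSO (SD, n = 3 each), or -0.82 on the log2 scale (SE 0.11, adjusted p = 4.1e-05). Averaged over the shared treatments, 4 were higher and 6 lower, with BOP1 (-0.18) and the rRNA methylase fibrillarin, FBL (-0.14), among those lower, beside 22% of all genes. PALBO raised RRP9 (0.33) and NOL6 (0.35), beside 3.11% of all genes higher. AG494 in APP cells lowered POP1 (-0.35) and DDX10 (-0.33), beside 2.76% of all genes lower. Both counts are near the share over all genes. Of 33 genes of RNA polymerases I and III, 4 were lower in APP cells over the shared treatments, among them POLR1H (-0.24, adjusted p = 0.00033), and 0 higher, where 9.9% of all genes were lower and 12.1% higher. Among 29 translation initiation factors 3 were lower, including the helicase EIF4A1 (-0.32, adjusted p = 0.00077) and the cap-binding inhibitor EIF4EBP1 (-0.15, adjusted p = 0.047), and 0 higher, in the same comparison. These counts of lower genes are close to the share over all genes. Of 12 genes for import and dedicated chaperones of ribosomal proteins, the importins IPO5 and IPO9 were lower (-0.16 each).

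Of 20 other measured mRNAs known for a TOP start, 1 was lower in APP_DMSO than in WT_DMSO, 2 fell with PALBO and 0 were higher, beside 4.05% of all genes lower in APP_DMSO and 3.87% lower with PALBO. VIM, which encodes vimentin, was lower in APP_DMSO than in WT_DMSO (-0.36, adjusted p = 0.0005) and lower with PALBO (-0.41, adjusted p = 0.00034), and PABPC1, the poly(A)-binding protein, was lower in APP cells over the shared treatments (-0.15, adjusted p = 0.0084). VIM is also one of the mesenchymal markers, of which 7 of 16 were lower in APP_DMSO and 0 higher, beside 4.05% of all genes lower. The mean over the list was 8.37 to 8.50 on the APP_DMSO arrays and 8.71 to 8.82 on the WT_DMSO arrays. Over the shared treatments 7 of the 16 were lower and 2, IL13RA1 and CD44, higher, beside 9.9% of all genes lower and 12.1% higher. Taken by treatment, IL13RA1 and CD44 were called higher under AG494 only. In APP cells AG494 raised 3 of the 16, NT5E, IL13RA1 and CCN1, and lowered 0, beside 1.99% of all genes higher. The 13 measured noradrenergic markers of SH-SY5Y cells were above 7 in every group. In APP_DMSO over WT_DMSO 5 of them differed, beside 9.25% of all genes. CHGB (0.63) and CHGA (0.59) were higher, and TBX2 (-0.77), TFAP2B (-0.34) and DBH (-0.31) lower. Of 10 immune markers 9 had group means under 7 in each group, as did 2 of 6 fibroblast markers and 2 to 3 of 5 glial ones. In the same comparison the fibroblast marker DCN was higher (1.55) and PDGFRA lower (-0.82), and S100B was lower (-1.01). CD68 was higher in APP cells over the shared treatments (0.18). Taken by treatment, CD68 was called higher under AG494 only, and AG494 raised it within APP cells. The part of these markers in the differences of RPL27A, RPL29, RPL7 and RPS7 between the lines was not tested. APP transcript averaged 12.29 ± 0.06 in APP_DMSO and 12.57 ± 0.07 in WT_DMSO (SD, n = 3 each), and the array does not read the mutation.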

How the data were processed

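The authors deposited log2 intensities per probe set. RMA and affy are named, without versions, in the submitters' processing notes. These values were used unchanged. Array medians over all probe sets ran from 7.88 to 8.03. Precision is limited by the number of arrays. Of 49372 probe sets, 79 controls, 1832 with several symbols and 2473 without a listed symbol were left out, and the brightest of the others stood for its gene. No dim gene was filtered. All 21 arrays entered 1 limma fit (limma 3.58.1, R 4.3.3; lmFit, eBayes) with 1 coefficient per group, no block, 14 residual and 4.27 prior degrees of freedom. Two-sided p-values were adjusted with the Benjamini-Hochberg method over 18134 genes in each of 11 contrasts and in the F test, with a threshold of 0.05. The fit was tested on simulated data, drawn independently for each gene and array. These held no differences between runs and no genes that move together, so the simulation does not bear on either. Where cultures are not known to be separate, p-values measure only the spread between arrays.

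Deviations from the group means correlated at 0.225 to 0.685 in 63 pairs of arrays of 1 run of title numbers and at -0.529 to 0.0889 in 126 pairs of different runs, so the runs pair the arrays and blocked values are given where they change a call. Members, lists and alternatives were chosen with earlier results of these data known. Members were named by role, by call, by the 5 lowest p-values and by range. The second probe sets, the probe sets of several symbols, RPL9 and the ranges of ENPEP and ACTA2 were singled out after values were seen.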

Additional observations from a re-analysis of the deposited data

How the results depend on the processing

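None of the 9 called differences of single members changed sign under any alternative, and RPL27A kept its call between the genotypes over the shared treatments and under AG494 in all 29. Counts of members depended on the processing. Over the shared treatments (4 called) and in the F test (3 called) the counts were 9 and 7 with the run of title numbers as a replicate block, 10 and 9 with probe sets of a gene averaged, 15 and 14 with every single-symbol probe set, 7 and 5 with array medians centred, and 8 and 6 with a trended and robust prior. In APP_DMSO over WT_DMSO, APP_AG494 over WT_AG494 and APP_NOSCA over WT_NOSCA (1 each), the mean of probe sets gave 2, 4 and 2 and every probe set 3, 6 and 2. The block gave 2, 2 and 2 in APP_AG494 over WT_AG494, APP_NOSCA over WT_NOSCA and WT_PALBO over WT_DMSO, and 4 in APP_AG494 over APP_DMSO, where every probe set gave 3. The trended prior gave 2 in APP_NOSCA over WT_NOSCA. Without the dimmest 33.3% of genes, which removes RPL27A by construction, APP_DMSO over WT_DMSO, APP_AG494 over APP_DMSO and both comparisons of the lines under a compound gave 0. With only the groups compared, which leaves fewer arrays, APP_DMSO and WT_PALBO over WT_DMSO gave 0.

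A pair of alternatives was added after seeing the data. Probe sets other than _x_at gave 9 over the shared treatments, 7 in the F test, 4 in APP_AG494 over WT_AG494 and 2 in APP_AG494 over APP_DMSO. Without title numbers 11 to 20, which leaves 2 arrays a group, 1 was called over the shared treatments, 1 in the F test, and 0 in APP_AG494 over APP_DMSO and in WT_PALBO over WT_DMSO. With 1 array left out at a time, the counts were 2 to 5 over the shared treatments, 2 to 5 in the F test, and 0 to 1 in APP_DMSO over WT_DMSO, WT_PALBO over WT_DMSO and APP_NOSCA over WT_NOSCA; the others did not move. The block changed no other call of a member. Centring the array medians also changed the split of all called genes in APP_DMSO over WT_DMSO to 688 higher and 969 lower, against 942 and 735, and over the shared treatments to 1705 and 2095, against 2186 and 1796. Where a cause is not named here it was not tested. Whether signal near the top of the scale is compressed was not tested, and RPL27A, RPL3L and RPL10L were dim.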

Other observations

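Pseudogene and small nucleolar RNA symbols share probe sets with several members. In all, 27 probe sets carry a member's symbol together with another symbol, and 3 more list RPL37 under several gene IDs. They entered no comparison. The group means of one of them, RPL13 with RPL13P12, ranged from 12.89 ± 0.10 in APP_AG494 to 13.06 ± 0.05 in WT_PALBO (SD, n = 3 each). Those of the 3 RPL37 sets spanned more, 1.14, 0.81 and 0.98, beside 0.10 for the chosen probe set of RPL37. Each was lowest in APP_AG494 and highest in WT_PALBO. The dimmest of the 3 averaged 7.75 ± 0.11 and 8.90 ± 0.15 in these groups (SD, n = 3 each), a difference that was not tested.

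The members with the widest range of group means after RPL27A, RPS27L and RPL39L were RPL36 (0.40), RPL35A (0.33), RPL7 (0.30), RPL13 (0.29), RPL9 (0.28), RPL10L (0.28) and RPS7 (0.27). APP_AG494 was the lowest group for RPL36, RPL35A, RPL7, RPL9 and RPS7, as it was for 32 of all 68 members. Without the block none of the 7 was called by the limma F test, and with it RPL36, RPL7 and RPS7 were, as given above.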
